A study of Arabidopsis thaliana with 9 samples.

Results

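Of the WRKY transcription factor family, 7 genes were listed as differing between a line with altered SRT1 expression and wild type: WRKY6, WRKY19, WRKY26, WRKY41, WRKY45, WRKY47 and WRKY53. They were found by their symbols in the 4 deposited lists of genes, which hold 2507 genes in all, and each was in 1 list. RNA was sequenced from 14-day-old Arabidopsis thaliana seedlings (leaf, stem and root together, Columbia background, half-strength medium) in 3 groups of 3 libraries: wild type, the RNA interference line RNAi-1 against SRT1 (RNAi), and the overexpression line OX-SRT1-1 (OX). These are the line names of the growth protocol, while the sample titles read R-AtSRT1 and OX-AtSRT1 and the deposited columns r5 and ox5. SRT1 encodes a nuclear sirtuin, an NAD-dependent protein deacetylase. Each line is 1 transgenic line, and the labels do not give the promoter of either transgene or say whether the libraries came from separate plants. The files give 1 FPKM value per group and gene (read fragments corrected for transcript length and library size) and no value per library, so no SD can be given. Whether a gene differed was decided by the authors' deposited table, which lists genes at least 2-fold apart with q-values up to 0.0496, so a fold of that size is a condition of listing and not a finding. Depth is unknown.

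WRKY proteins are plant transcription factors named after the first residues of a conserved signature in their DNA-binding domain, which also holds a zinc finger. They bind the W-box, a short element with the core TTGAC, in the promoters of genes of defence, senescence, nutrient and stress responses, and many WRKY genes carry W-boxes themselves and are induced within the same responses. Many act downstream of MAP kinase cascades and bind VQ proteins as partners.

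The coding DNA of the signature is shown because it is what the 7 genes share whatever their direction. Each line gives 60 bases of TAIR10.1 coding sequence, credited to RefSeq, read 5′ to 3′ on the coding strand, with the 21 bases of the signature in capitals.
WRKY6: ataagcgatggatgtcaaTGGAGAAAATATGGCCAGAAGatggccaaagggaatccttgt
WRKY47: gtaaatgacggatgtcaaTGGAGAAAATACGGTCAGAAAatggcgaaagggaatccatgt
WRKY41: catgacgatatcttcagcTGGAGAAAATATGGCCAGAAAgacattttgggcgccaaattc
WRKY53: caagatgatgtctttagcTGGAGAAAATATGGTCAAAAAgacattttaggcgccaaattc
WRKY19: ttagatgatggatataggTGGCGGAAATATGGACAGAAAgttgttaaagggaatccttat
WRKY45: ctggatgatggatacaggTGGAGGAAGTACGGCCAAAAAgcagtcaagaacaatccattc
WRKY26 first domain: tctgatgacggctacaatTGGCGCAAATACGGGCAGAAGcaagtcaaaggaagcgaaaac
WRKY26 second domain: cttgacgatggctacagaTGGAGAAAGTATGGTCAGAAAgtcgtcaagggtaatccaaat
WRKY26 has 2 signatures and each of the others 1, which gives 8 in all. Among the 72 RefSeq genes with a WRKY symbol or synonym, 12 have 2 signatures. Over the 8 signatures 14 of the 21 bases are the same everywhere and 7 vary, 6 of them the last base of a codon, and all 8 translate to the same 7 residues. Signatures were found by searching translated sequences for WRKYG, then Q, K or E, then K. Their shared translation was therefore largely set by the search. WRKY6 and WRKY41 differ at 1 base, and the 2 signatures of WRKY26 differ at 6 bases.

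The family's share in the lists was close to that of all genes. Of the 72 WRKY genes, 7 were in any of the 4 lists, or 9.72%, and 65 were in none. Of 27444 annotated nuclear protein-coding genes, 8.31% were in any list. In the OX lists 4 WRKY genes were found, or 5.56% of the family, beside 6.39% of all annotated genes. In the RNAi lists 3 were found, or 4.17%, beside 3.64%. By list the shares were 2.78% of the family against 2.60% of all genes lower in OX, 2.78% against 3.80% higher in OX, 1.39% against 2.38% in the RNAi list titled R-up, and 2.78%, which is 2 genes, against 1.25% in the one titled R-down. The denominator is the annotation, since the number of genes that the authors tested is not given in the sources used here. Of the 7 genes, 0 were listed in both comparisons, beside 584 of all 2507 listed genes. With 7 genes this count cannot tell whether the family differs from the other listed genes in this. For a gene outside a list no value was used here, and this does not show that it did not change.

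The labels of the RNAi lists conflict, which bears on 3 of the 7 genes. R-down has RNAi as the label of its first column, which is the higher one, so title and labels disagree. R-up is labelled wild type first and RNAi second, and its second column is higher. Over 519 genes listed in both comparisons, the second column of the RNAi tables stayed within 0.1 (log2) of 1 constant shift from the column labelled wild type in the OX tables in 519 of 519 genes, the second column of the OX tables being 1.06-fold higher. These 519 leave out 65 genes, of which 12 broke the shift: 11 of 14 genes with a locus written in another format, and SRT1. The 50 left out because their locus covers another gene all kept to it, so over all 584 genes it held in 572. Of the 519 genes, 319 were in R-up, where the column labelled wild type lay that close in 0. Folds below are therefore given against the second column, with its label. SRT1, the target of both constructs, stood at 6.05 FPKM in OX against 1.75 FPKM in wild type. In the RNAi table the columns labelled RNAi and wild type had 2.37 and 0.419 FPKM, so SRT1 was not lower under the RNAi label. Its second column in the RNAi table was 4.18-fold below that in the OX table, far from the shift of the other genes, so this entry was not used to choose between the columns. In the 572 genes that kept the shift, the second column thus tracks the wild type of the OX tables, against the labels of R-up. The titles of both lists go against that reading, and SRT1 does not follow the shift. Which column is the RNAi line therefore stays uncertain.

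**Figure D1:**
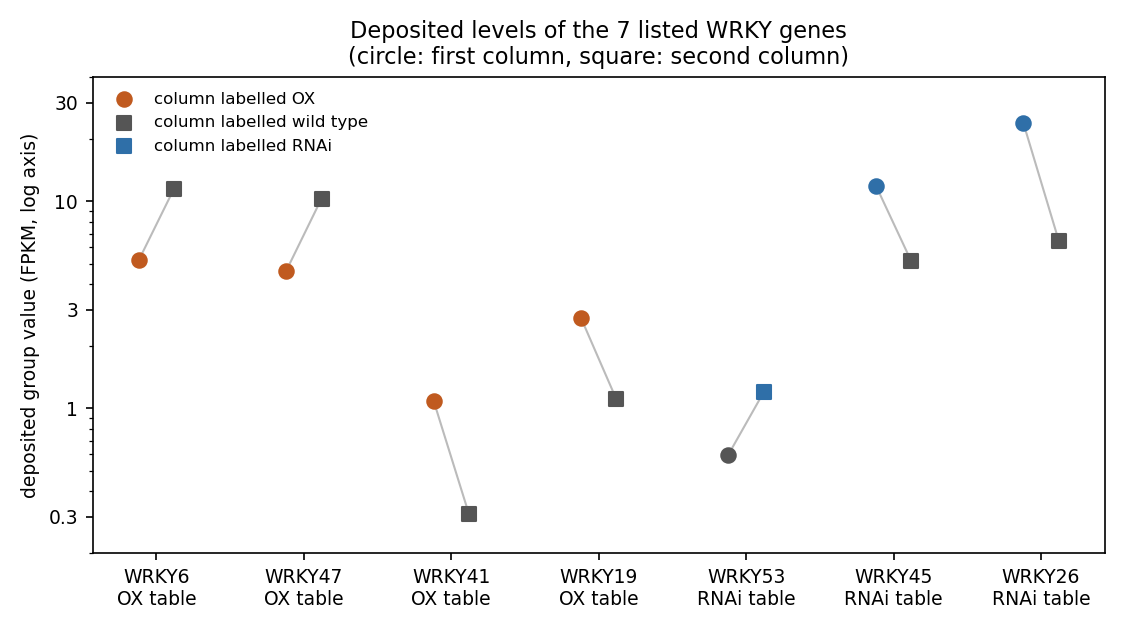
Deposited FPKM of the 7 WRKY genes on a log axis, 1 point per group, with the first column as a circle, the second as a square, and the colour giving the label of the column. WRKY6 and WRKY47 are lower in OX, WRKY41 and WRKY19 higher in OX, WRKY45 and WRKY26 higher in the column labelled RNAi, and WRKY53 lower in the first column, which is labelled wild type.

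In OX, WRKY6 and WRKY47, both of the subgroup II-b, were lower than in wild type, by nearly the same fold. WRKY6 (AT1G62300, chromosome 1, 23016683 to 23019279 in TAIR10) regulates senescence and defence genes and the phosphate exporter gene PHO1. Its level was 5.19 FPKM in OX and 11.5 FPKM in wild type, 2.22-fold lower in OX (q = 0.00015 in the authors' deposited table). WRKY47 (AT4G01720, chromosome 4, 744921 to 748554) was 4.61 FPKM in OX and 10.3 FPKM in wild type, 2.24-fold lower (q = 0.00015 in the authors' deposited table). These were the highest second-column levels among the 7 genes and differed from each other by less than either gene did between OX and wild type. Both folds were below the median of the list, which was 2.49 over its 745 nuclear entries. In that list of 832, WRKY47 ranked 588 and WRKY6 602 by fold. Both had the smallest p-value of the authors' deposited table, and p divided by q puts 33.4% of all tests of that comparison at this value.

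WRKY41 and WRKY19 were higher in OX, from low levels in wild type. WRKY41 (AT4G11070, chromosome 4, 6759303 to 6760794), a group III factor that promotes expression of the seed dormancy regulator ABI3, was 1.09 FPKM in OX and 0.309 FPKM in wild type, 3.53-fold higher (q = 0.0052 in the authors' deposited table). It was the lowest of the 7 genes in the second column and ranked 136 of 1134 by fold in its list. WRKY19 (AT4G12020, chromosome 4, 7201656 to 7209648) encodes an unusual fusion of a TIR-NB-LRR immune receptor, a WRKY domain and a MAP kinase kinase kinase. It was 2.73 FPKM in OX and 1.11 FPKM in wild type, 2.47-fold higher (q = 0.00015 in the authors' deposited table), close to the list's median fold of 2.42. Its locus spans 7993 bp, against a median of 3234.5 bp for genes higher in OX and 1327 bp for nuclear genes lower in OX. WRKY6, WRKY47 and WRKY41 span 2597, 3634 and 1492 bp, so the 2 WRKY genes lower in OX were longer than that list's median and WRKY41 was shorter than the median of its own. Whether gene span had a part in these values was not tested.

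In the RNAi tables, WRKY26 and WRKY45 were higher in the column labelled RNAi than in that labelled wild type, although their list has the title R-down. WRKY26 (AT5G07100, chromosome 5, 2204248 to 2205811), which acts in heat tolerance together with WRKY25 and WRKY33, was 24.0 FPKM against 6.47 FPKM, 3.70-fold higher (q = 0.0002 in the authors' deposited table). This was the largest fold of the 7 genes and ranked 46 of 377 in its list, whose median was 2.30. WRKY45 (AT3G01970, chromosome 3, 326397 to 327412), an activator of the phosphate transporter gene PHT1;1, was 11.9 FPKM against 5.14 FPKM, 2.32-fold higher (q = 0.0002 in the authors' deposited table), and ranked 185. In that list 9.28% of genes had a higher level than WRKY26 in the higher column, and 17.2% a higher level than WRKY45.

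WRKY53, a group III factor that promotes leaf senescence, had the smallest fold and the highest q-value of the 7 genes. It was 0.599 FPKM in the first column, labelled wild type, and 1.20 FPKM in the second, labelled RNAi, 2.01-fold apart (q = 0.047 in the authors' deposited table), and ranked 743 of 749 by fold. By the labels it was higher in RNAi, and against the second column, which tracks the wild type of the OX tables, it was lower. At its p-value, p divided by q puts 49.7% of all tests at or below it. Its deposited locus (AT4G23810, chromosome 4, 12390167 to 12393982) is 3816 bp long, while the RefSeq gene is 1613 bp.

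In the second column the order of levels was WRKY6, WRKY47, WRKY26, WRKY45, WRKY53, WRKY19 and WRKY41, from 11.5 to 0.309 FPKM, a range of 37.3-fold. With no spread over libraries, neighbours in that order could not be compared. The OX and RNAi tables were normalized separately.

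**Figure D2:**
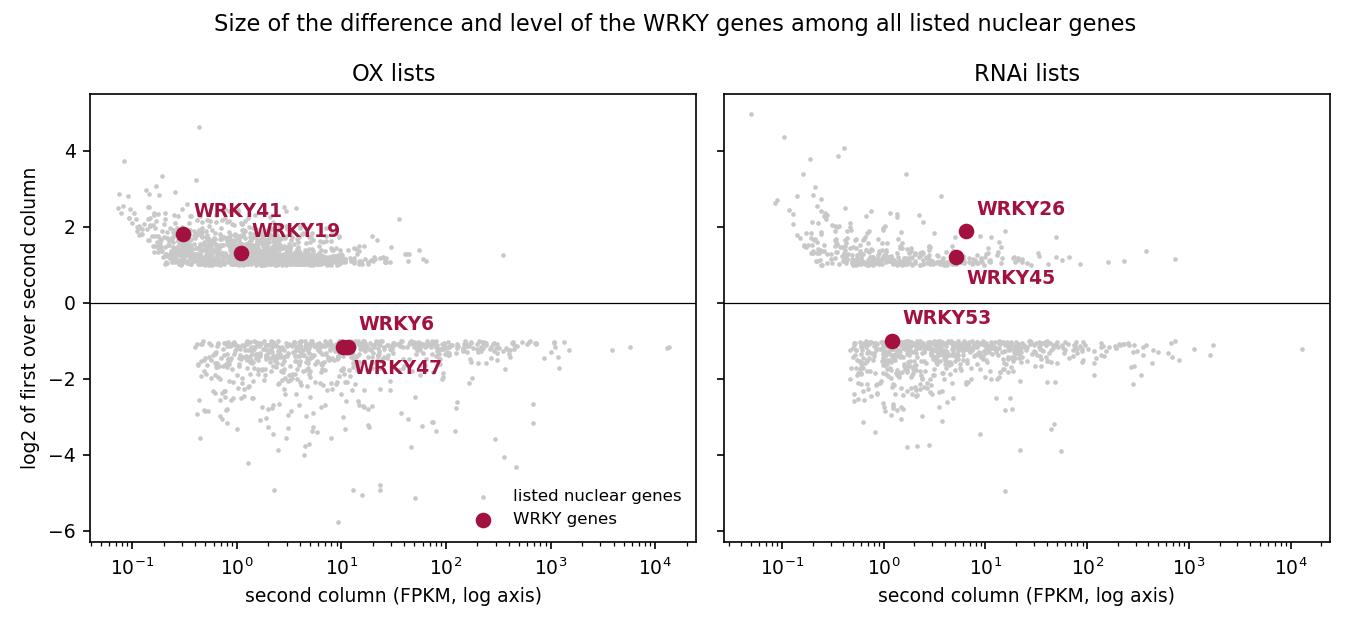
Each grey point is a listed nuclear gene, with its FPKM in the second column on a log x axis and the log2 of first over second column on the y axis, for the OX lists at left and the RNAi lists at right. The WRKY genes lie within the cloud of listed genes, WRKY53 at the 2-fold edge and WRKY26 and WRKY41 near 1.8 to 1.9.

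Both group III genes stand tail to tail with a gene for a protein of the 3xHMG-box kind, which binds mitotic and meiotic chromosomes, and the tails overlap in RefSeq. WRKY41 overlaps HMGB13 (AT4G11080) by 517 bp on opposite strands, and WRKY53 overlaps HMGB6 (AT4G23800) by 341 bp. HMGB13 was 6.01 FPKM in OX and 1.27 FPKM in wild type, 4.73-fold higher (q = 0.00015 in the authors' deposited table), in the same list as WRKY41 and at a higher level. In the deposited loci WRKY41 and HMGB13 lie 72 bp apart. HMGB6, at 19.3 FPKM in OX and 8.50 FPKM in wild type, was 2.28-fold higher in OX, and its deposited locus is the same as that of WRKY53. The libraries were made with a TruSeq RNA kit that does not mark the strand, so reads from the overlaps cannot be assigned by strand. The part of the neighbours' reads in the values of WRKY41 and WRKY53 was not tested. WRKY19 overlaps AT4G12010, read in the opposite direction from its 5′ side, by 50 bp, and that gene was in 0 lists. The RefSeq genes of WRKY6, WRKY47, WRKY45 and WRKY26 overlap no neighbouring protein-coding gene.

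**Figure D3:**
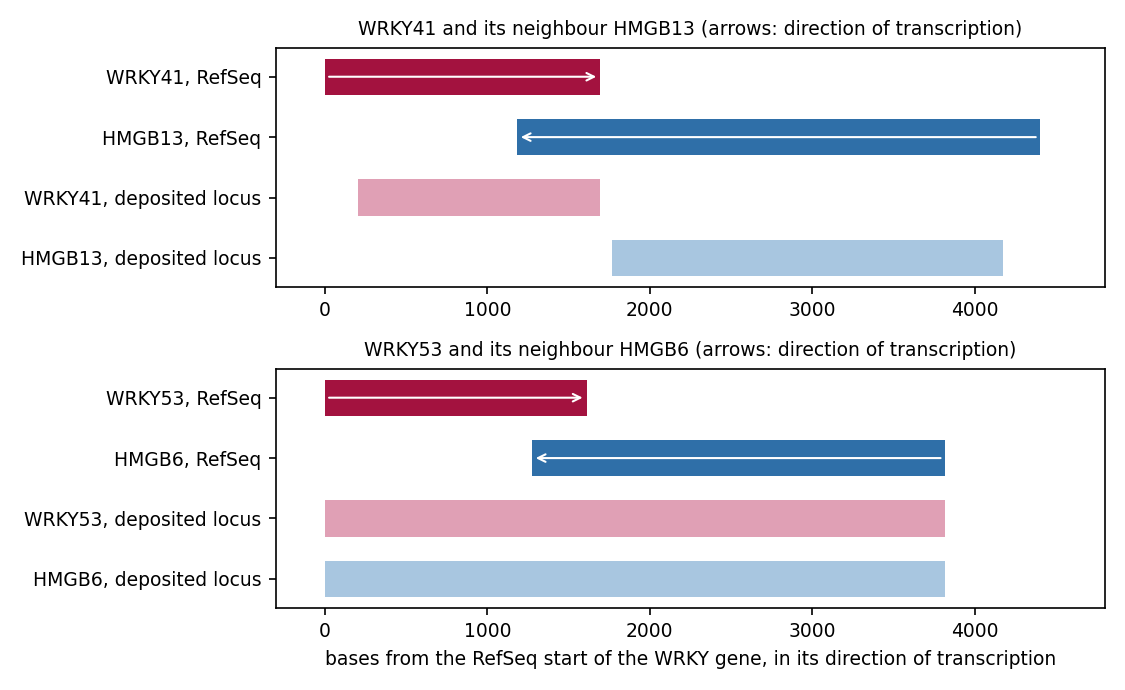
Spans of WRKY41 with HMGB13 and of WRKY53 with HMGB6, in bases from the RefSeq start of the WRKY gene, as annotated by RefSeq (dark bars, arrows for direction) and as deposited (light bars). The RefSeq tails overlap by 517 and 341 bp, and WRKY53 and HMGB6 share 1 deposited locus.

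The promoters of these 2 genes are shown because they are alike, although the genes were listed in different comparisons. Each line is the 250 bases before the RefSeq start in TAIR10.1, 5′ to 3′ in the direction of the gene, with the W-box core TTGAC, or GTCAA where it lies on the other strand, in capitals.
WRKY41 (chr4:6758848-6759097, plus strand): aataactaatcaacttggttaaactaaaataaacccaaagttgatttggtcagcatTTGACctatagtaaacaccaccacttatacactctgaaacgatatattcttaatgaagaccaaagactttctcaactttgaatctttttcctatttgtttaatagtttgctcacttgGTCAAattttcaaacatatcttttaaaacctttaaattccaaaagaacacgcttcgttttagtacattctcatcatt
WRKY53 (chr4:12393983-12394232, minus strand): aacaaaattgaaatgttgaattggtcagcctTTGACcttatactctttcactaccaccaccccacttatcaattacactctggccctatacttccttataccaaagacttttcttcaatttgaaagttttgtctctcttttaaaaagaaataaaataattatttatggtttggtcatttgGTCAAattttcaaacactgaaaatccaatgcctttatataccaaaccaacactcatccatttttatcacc
Both hold 1 core on each strand, the first base 194 and 77 bases before the start in WRKY41 and 219 and 70 bases in WRKY53. In a global alignment 177 of the 250 bases were identical, or 70.8%, with a longest shared run of 19 bases, against 55.2% to 64.8% and runs of 7 to 10 bases in the other 20 pairs among the 7 genes.

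Over the 7 genes, 6 windows of 250 bases held TTGAC on either strand, WRKY47 being without it. The share was 52.8% over the 72 WRKY genes and 44.9% over all 27443 nuclear protein-coding genes with a full window. With TTGACC or TTGACT, which contain the core, the counts were 5 of 7, 34.7% and 28.4%. The windows of WRKY19, WRKY45 and WRKY26 run into a neighbouring gene. That of WRKY19 lies wholly inside AT4G12010, and so do its cores. The neighbours of WRKY45 and WRKY26 lie 42 and 55 bases away. In WRKY45 the cores 223 and 188 bases before the start lie inside the neighbour, and that at 15 bases does not. The only core of WRKY26, 57 bases before the start, straddles the end of its neighbour. With 1000 bases, 7 of 7 and 88.1% of all genes held the core. These matches describe the letters and show no binding.

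Of 89 genes in 8 lists of WRKY-related functions, 85 were matched to an identifier and 12 were in a deposited list, or 14.1%, beside 8.31% of all annotated genes. The 8 lists were chosen with earlier results of these data known, so the higher share cannot be read as enrichment. The counts of single lists below rest on 1 to 3 genes, and the same 8.31% in any list applies to each, with 2.60% for genes lower in OX. The median fold of the listed pathway genes was 2.40 over 8 genes lower in OX, beside 2.49 over the nuclear entries of that list, 2.45 beside 2.42 over 4 genes in R-up, and 2.35 beside 2.30 over 4 genes in R-down. Only PR2 was higher in OX. Reported WRKY target genes had 2 of 7 listed, both lower in OX (2.60% of all annotated genes were). SIRK (FRK1, AT2G19190), a receptor kinase gene induced in senescence and by flagellin and a reported target of WRKY6, was 0.0743 FPKM in OX and 2.25 FPKM in wild type, 30.2-fold lower (q = 0.00015 in the authors' deposited table), rank 22 of 832. In the RNAi table it was 0.156 FPKM in the first column, labelled wild type, and 2.13 FPKM in the second, labelled RNAi. Against the second column, which tracks the wild type of the OX tables, it was 13.6-fold lower, rank 9 of 749. By the labels it was higher in RNAi. The folds of SIRK rest on 0.0743 and 0.156 FPKM in the lower columns, so their size is uncertain. PHT1;1, the reported target of WRKY45, was 11.5 FPKM in OX and 23.2 FPKM in wild type, 2.01-fold lower (q = 0.00015 in the authors' deposited table). PHT1;1 has near-identical copies in its gene family, so the assignment of reads among them is uncertain. WRKY45 was listed in the RNAi comparison and PHT1;1 in the OX comparison. PHO1, ABI3 and SAG12, reported targets of WRKY6, WRKY41 and WRKY53, were in 0 lists.

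The SIRK promoter is shown beside that of WRKY6 because W-boxes are its known feature. The lines are written as those above.
SIRK (chr2:8329945-8330194, minus strand): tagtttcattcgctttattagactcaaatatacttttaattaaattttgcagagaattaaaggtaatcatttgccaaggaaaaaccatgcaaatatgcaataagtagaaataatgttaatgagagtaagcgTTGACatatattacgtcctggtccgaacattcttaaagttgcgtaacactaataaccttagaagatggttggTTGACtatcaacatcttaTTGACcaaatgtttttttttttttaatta
WRKY6 (chr1:23019495-23019744, minus strand): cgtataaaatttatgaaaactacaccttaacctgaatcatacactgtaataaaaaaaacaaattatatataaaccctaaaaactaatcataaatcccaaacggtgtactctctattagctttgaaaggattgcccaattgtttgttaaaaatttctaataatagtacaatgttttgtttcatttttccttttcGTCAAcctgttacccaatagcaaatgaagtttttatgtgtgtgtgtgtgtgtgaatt
The SIRK window holds 3 cores, all on the strand of the gene, 119, 47 and 29 bases before its start, and the WRKY6 window holds 1, on the other strand, 57 bases before its start.

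**Figure D4:**
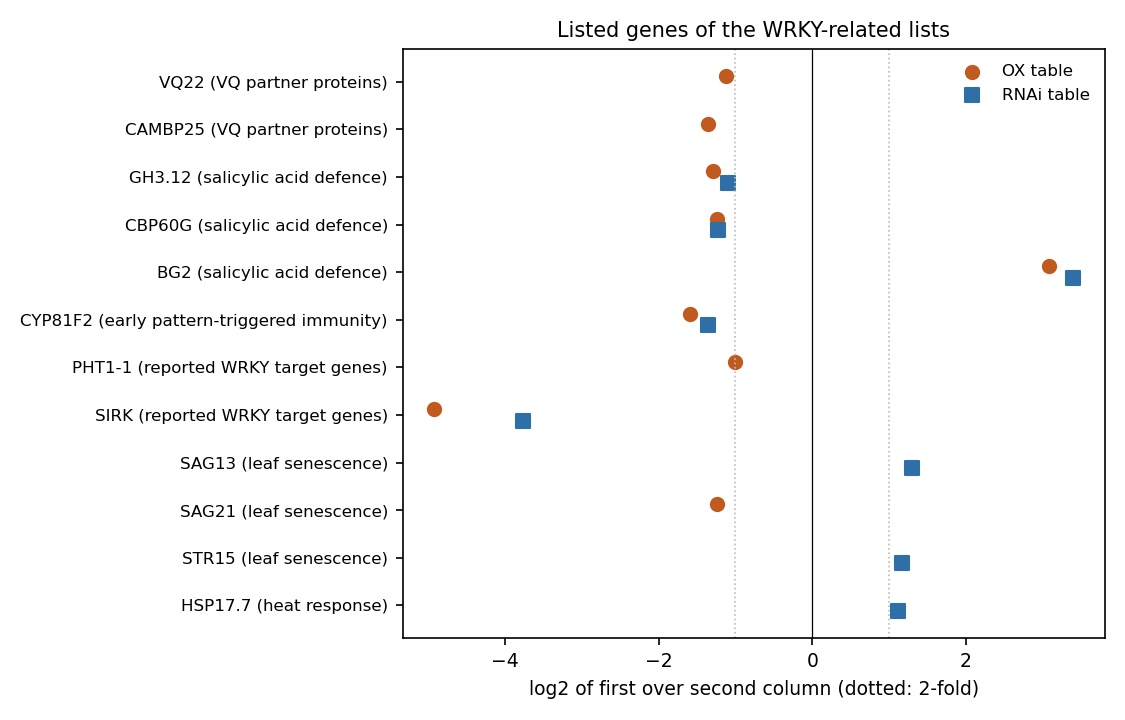
Log2 of first over second column for the 12 listed genes of the WRKY-related lists, circles for the OX table and squares for the RNAi table, with dotted lines at 2-fold. SIRK lies farthest to the left in both tables and BG2 farthest to the right. The lower FPKM value of each is small, so the size of these ratios is uncertain.

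Among VQ partner proteins, 2 of 8 matched genes were listed, both lower in OX, beside 2.60% of all annotated genes in that list. CAMBP25, a calmodulin-binding VQ protein, was 8.96 FPKM in OX and 22.9 FPKM in wild type, 2.56-fold lower. VQ22 (JAV1), a repressor of jasmonate defence, was 3.01 FPKM and 6.54 FPKM, 2.17-fold lower. Of the MAP kinase cascade 0 of 10 genes were listed, and of TIR-NB-LRR receptors 0 of 13 matched genes.

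Salicylic acid defence had 3 of 15 matched genes listed, each in both comparisons, beside 6.39% of all annotated genes in either OX list and 3.64% in either RNAi list. Of all 2507 listed genes, 584 were in both comparisons. CBP60G, a transcription factor of salicylic acid synthesis, was 1.62 FPKM in OX and 3.83 FPKM in wild type, and 1.56 FPKM in the first column, labelled wild type, and 3.65 FPKM in the second, labelled RNAi, of the RNAi table. PBS3 (GH3.12) was likewise lower than the second column in both tables, by 2.44-fold and 2.14-fold. By the labels both genes were lower in OX and higher in RNAi. Against the second column, which tracks the wild type of the OX tables, both were lower in both tables. PR2 (BG2), a glucanase, was higher in both first columns, labelled OX and RNAi, at 1.42 and 1.67 FPKM against 0.168 and 0.159 FPKM. With second columns this low, the size of its ratios is uncertain. Of early pattern-triggered immunity 1 of 11 genes was listed, CYP81F2 of indole glucosinolate metabolism, at 2.11 FPKM in OX and 6.36 FPKM in wild type. In the RNAi table it was 2.36 FPKM in the first column, labelled wild type, against 6.07 FPKM in the second, labelled RNAi. By the labels it was higher in RNAi, and against the second column it was lower. Both comparisons rest on wild type, so they are not independent.

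Leaf senescence had 3 of 10 genes listed, beside 8.31% of all annotated genes in any list. SAG21, which encodes a stress-induced mitochondrial protein, stood at 174 FPKM in OX and 411 FPKM in wild type, 2.36-fold lower. SEN1 (STR15) and SAG13 were higher in the column labelled RNAi than in that labelled wild type, at 1653 against 736 FPKM and 1.03 against 0.420 FPKM. Of the heat response list 1 of 11 genes was listed, HSP17.6A (HSP17.7 in the table), a small heat shock protein gene, at 2.70 FPKM in the column labelled RNAi and 1.24 FPKM in that labelled wild type.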

How the data were processed

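RNA sequencing of 9 seedling libraries was processed with TopHat2 2.1.1, Cufflinks 2.2.1 and Cuffdiff against TAIR10, per the submitters' processing notes, where neither role nor order is stated. The authors deposited 4 lists in Cuffdiff's format, with 1 FPKM value per group, a log2 ratio, a p-value and a q-value per gene, per the file headers, and only genes past their limits. Each fold was computed from a gene's pair of deposited FPKM values, with no pseudocount. The members and the pathway lists were chosen with earlier results of these data known, and no test over them was made. The named genes were the 7 members, listed genes of the pathway lists (at most 4 each, by highest FPKM) and SRT1. The rule also named, for members listed in both comparisons, the genes with the closest pattern, and applied to 0 members. Overlapping neighbours were named after their values were seen.

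Loci are TAIR10 as deposited, counted from 1. Of 2413 listed nuclear genes found in the RefSeq annotation of TAIR10.1, 2412 overlapped the RefSeq gene of the same identifier and 828 shared a start or an end to the base, so sequences were read from that assembly. In 28 entries the locus is written in another format, and 0 of them is a WRKY gene; they were left out of the comparison of second columns, as were SRT1 and loci that cover another gene, and of their genes listed in both comparisons 11 of 14 did not follow the shift of the other genes. Python 3.11.15, pandas 2.3.3 and Biopython 1.88 were used. The motif search was tested on simulated sequences.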

Additional observations from a re-analysis of the deposited data

How the results depend on the processing

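With 1 value per group, no library could be left out. No paired analysis was possible because the columns carry no replicate. The direction of WRKY53 reverses to 1.00 (log2, RNAi over wild type) when the column labels replace the second column as reference. The number listed lower in OX went from 2 to 0 with a log2 fold limit of 1.5. The number higher in OX went from 2 to 0 with at least 5 FPKM or with 2-fold on the log2(FPKM + 1) scale, and to 1 with the fold limit or, chosen after seeing the data, without members that overlap a listed neighbour. The number in the RNAi list titled R-up, WRKY53, went from 1 to 0 with at least 5 FPKM, the fold limit, log2(FPKM + 1), a q-value of at most 0.01, without loci that cover another gene, or without overlapping members. The number in R-down went from 2 to 1 with the fold limit. Each loss follows from the setting's own limit. Of the 7 genes and of 2929 nuclear entries, a minimum of 1 FPKM kept 7 and 85.5%, one of 5 FPKM 4 and 44.2%, the fold limit 2 and 30.7%, log2(FPKM + 1) 4 and 40.2%, the q-value limit 6 and 87.5%, and leaving out loci that cover another gene 6 and 92.4%. The windows with a W-box were 6, 5 with TTGACC or TTGACT and 7 with 1000 bases. The deposited log2 ratios, which are of second over first column, gave the same values once their sign was reversed. Low levels limit WRKY41, WRKY53 and WRKY19, which were below 1.5 FPKM in the second column. The ratios of SIRK and PR2 rest on lower values still.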
